A study of Mus musculus with 23 samples.

Results

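The genes described here encode the main families of cell adhesion receptors: integrins, cadherins, protocadherins, cell adhesion molecules of the Cadm family and nectins. They were taken by name, as every gene whose symbol begins with Itga or Itgb (leaving out the integrin-binding proteins of the Itgb1bp and Itgb3bp type), Cdh followed by a number, Pcdh, Cadm or Nectin. Of 18193 genes measured, 89 met that rule: 26 integrins, 21 cadherins, 35 protocadherins, 3 Cadm genes and 4 nectins. A further 39 protein-coding genes that RefSeq lists under these names were not analysed here, and 34 of them are protocadherins of the Pcdha and Pcdhg groups.

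Integrins are pairs of an alpha and a beta chain that bind matrix proteins such as laminin, fibronectin and vitronectin, or receptors on other cells, and link them to actin. Classical cadherins bind the same cadherin on the next cell and hold the actin skeleton through catenins, and the change from E-cadherin to N-cadherin is a known mark of carcinoma cells with mesenchymal features. Protocadherins lack the catenin-binding tail and are best known from the nervous system, where the clustered ones give neurons distinct surface identities. Cadm proteins and nectins are immunoglobulin-domain receptors that bind one another across cell contacts.

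The material was total RNA from LLC (Lewis lung carcinoma), a mouse line that forms tumours when transplanted, in the form of 8 subclones: numbers 2, 3, 6, 18, 19, 23, 24 and 28. Each subclone was grown out of the parental cells by limiting dilution, maintained in DMEM with fetal bovine serum, and kept for 24 h in serum-free medium before RNA extraction, and all 8 share these steps. There were 3 arrays for each subclone except subclone 6, which had 2, and 23 in all. No subclone serves as a control in the labels, so each was set against the mean of the other 7, and each stands for 1 clone only.

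Levels are log2(intensity + 16), so a level of 6 is an intensity of 48, close to the array medians of 40.83 to 45.74. Each gene was read from 1 probe set, the one with the highest mean level, and levels are compared between subclones and not between genes. Array means lay between 412 and 441.1, and the least alike pair of arrays correlated at 0.975 over all probe sets. Differences carry the standard error (SE) of the linear model in limma, and adjusted p-values are Benjamini-Hochberg values over all 18193 genes. The labels call the arrays biological replicates without saying that they came from separate cultures, so the p-values measure the spread between these arrays, which may be technical. In bulk RNA, fewer cells that express a gene and less RNA per cell cannot be told apart.

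Expression of many adhesion genes differed between the subclones, led by Cadm1, Pcdh19, Itgb2, Cdh13 and Cadm4. The F-test over the 8 subclone means was passed by 44 of the 89 genes, or 49.4%, against 61.8% of all genes. A range of subclone means of at least 1 log2 unit was found for 23 of them (25.8%, against 12.7% of all genes), and a range of at least 2 log2 units for 8 (2.50% of all genes). Of the 89 genes, 51 had no subclone mean as high as 6, with means between 4.10 and 5.84, and 10 of these passed the F-test. Such levels lie near or under the array medians, and calls of presence were not used here.

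By family, the counts were as follows, beside 61.8% of all genes past the F-test and 12.7% with a range of at least 1. Of 26 integrins, 19 passed the F-test (73.1%), 8 spanned 1 log2 unit or more (30.8%) and 8 stayed below 6 throughout. Of 21 cadherins, 5 passed (23.8%), 2 had such a range (9.52%) and 17 stayed below 6. Among those 17 were the P-cadherin Cdh3 and the osteoblast cadherin Cdh11. Of 35 protocadherins, 16 passed (45.7%), 10 had such a range (28.6%) and 23 stayed below 6. The median range was 0.72 for integrins, 0.32 for cadherins and 0.51 for protocadherins, beside 0.49 for all genes. Among the 3 Cadm genes, 2 passed with ranges of 5.41 and 2.79, and among the 4 nectins 2 passed, 1 of them with a range of at least 1.

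**Figure D1:**
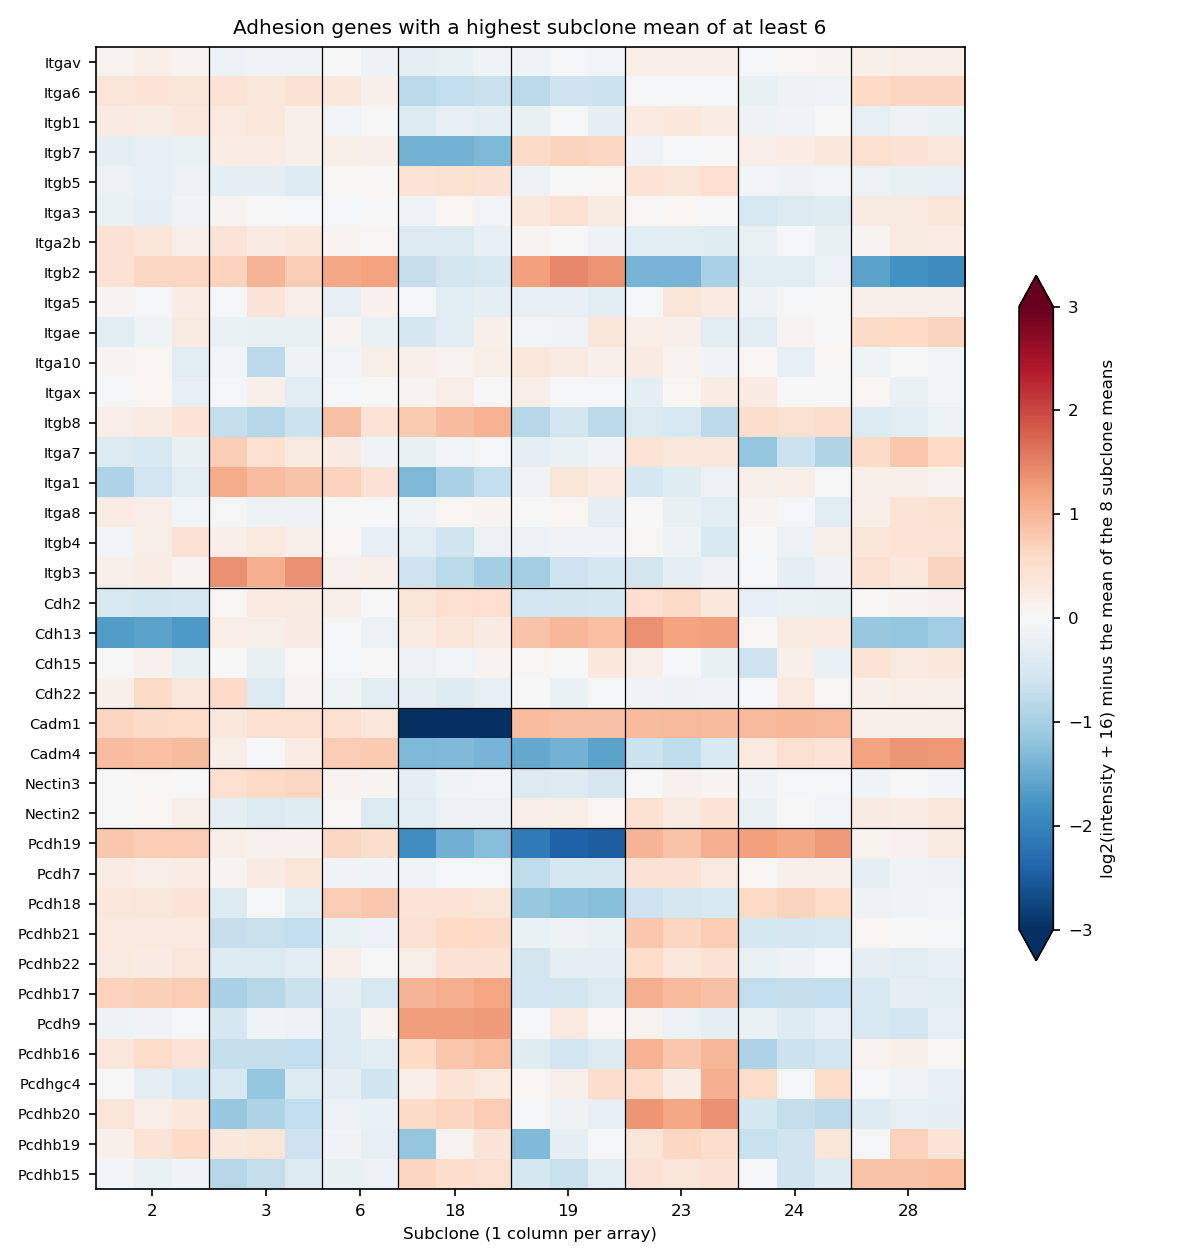
Level on each array minus the mean of the 8 subclone means, log2(intensity + 16), for the 38 adhesion genes whose highest subclone mean reached 6. Columns are the 23 arrays, grouped by subclone, and horizontal lines separate integrins, cadherins, Cadm genes, nectins and protocadherins; colours stop at 3 log2 units. Cadm1 in subclone 18 and Pcdh19 in subclone 19 are the deepest blue, and the arrays of a subclone share the direction of these strong colours.

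Each subclone was then set against the mean of the other 7, and a gene counted as apart when the adjusted p was under 0.05 and the difference at least 1 log2 unit. By that measure 16 of the 89 genes were apart somewhere. Percentages in parentheses are the shares of all genes that were apart in the same way. In subclone 18, 8 adhesion genes were apart (2.64%), 3 of them higher (0.857%) and 5 lower (1.79%). Subclone 23 had 7 (1.13%), 6 higher (0.555%) and 1 lower (0.577%), and subclone 19 had 6 (1.71%), 3 higher (0.885%) and 3 lower (0.830%). Subclone 28 had 4 (1.32%), 2 higher (0.973%) and 2 lower (0.346%). Subclone 3 had 3 (0.934%), 2 higher (0.528%) and 1 lower (0.407%), and subclone 24 had 3 (1.04%), 2 higher (0.357%) and 1 lower (0.687%). Subclone 2 had 1 higher (0.478%) and 1 lower (0.627%) of 1.10% apart, and subclone 6 had 1, which was higher (0.407% of 0.522% apart). Every contrast draws on all arrays, so the 8 counts are not independent. Counts in subclone 3 depended most on the processing and ran from 0 to 11 over the alternatives tried.

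Over the 28 pairs of subclones, the same thresholds gave 190 differences among these genes, where 2.41% of all gene and pair combinations differed. The pair furthest apart was subclone 3 and subclone 18, with 16 of the 89 genes (18% of them, against 4.32% of all genes). Next came subclones 28 and 18 with 13 genes (14.6%, against 4.49% of all genes). Subclones 6 and 24 differed in 1 gene of the 89, Itgb2 (1.12%, against 1.09% of all genes).

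Cadm1 gave the widest difference of the 89. It encodes a homophilic receptor of epithelial contacts, also known as TSLC1 for its loss in human lung cancer. Its level was 4.74, 4.80 and 5.07 on the 3 arrays of subclone 18, while the 20 arrays of the other subclones ran from 9.45 to 10.30 with a median of 9.91. All arrays of subclone 18 lay below 6 and all others far above it. The subclone 18 mean of 4.87 ± 0.17 (SD, n = 3) was 5.06 ± 0.05 (SE) log2 units below the mean of the others, 33.4-fold on this scale (limma, adjusted p = 4.08e-22). The nearest other subclone, 28, lay 4.59 log2 units higher. Outside subclone 18 the order was narrow: subclone 28 at 9.46, subclones 6, 3 and 2 from 9.71 to 9.89, and subclones 19, 23 and 24 from 10.20 to 10.28. Neighbours within those last 3 did not differ past the threshold (adjusted p of 0.59 and 0.83). Cadm1 was also called higher in subclones 19, 23 and 24, by 1.03, 1.09 and 1.12, in contrasts whose other 7 subclones include subclone 18.

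Of 4 probe sets for Cadm1, 3 showed this gap, with ranges from 4.74 to 5.41. The fourth did not: its range was 0.58 and its subclone 18 mean of 7.28 lay inside the span of 7.19 to 7.78 over all subclones. Cadm1 lies on chromosome 9, whose 593 genes with a mean of at least 6 had a median difference of 0.03 in subclone 18. The 6 measured genes next to Cadm1 on one side differed there by −0.04 to 0.07. Of these, only Zpr1 and Bud13, at −0.03 and −0.015, had a mean of at least 6. On the other side Nxpe4, Nxpe2 (mean 4.73) and Rexo2 differed by 0.12 to 0.15. Beyond them, Rbm7, Gm5617 (mean 5.81) and Nnmt differed by −1.11, −1.03 and −0.59. Krt8, an epithelial keratin, was likewise low in subclone 18, at 5.70 against at least 10.32 in every other subclone.

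**Figure D2:**
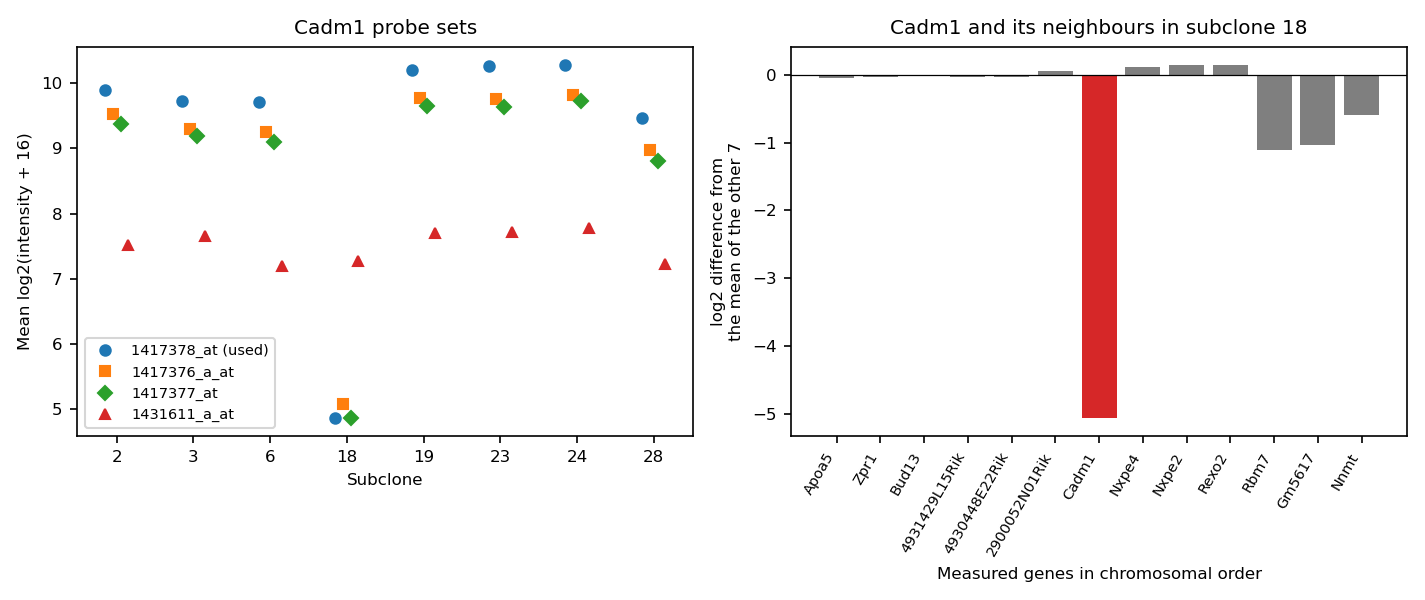
Left, mean level of the 4 Cadm1 probe sets in each subclone, log2(intensity + 16), with the points of a subclone set slightly apart so that none is hidden. Right, log2 difference between subclone 18 and the mean of the other 7 for Cadm1 and the 6 measured genes on each side; 3 probe sets drop in subclone 18 while the fourth does not, and Cadm1 at −5.06 stands beside neighbours between −1.11 and 0.15.

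Cadm4, a relative of Cadm1 known from myelin and epithelia, was low in subclone 19 and subclone 18. It read 5.14, 5.27 and 5.08 in subclone 19 and 5.33, 5.35 and 5.28 in subclone 18, against 7.88, 8.0 and 7.98 in subclone 28, where it was highest. The arrays of subclones 18 and 19 were close to each other and below those of every other subclone. Differences from the mean of the other 7 were −1.73 ± 0.06 in subclone 19, −1.55 ± 0.06 in subclone 18, 1.06 ± 0.06 in subclone 2 and 1.46 ± 0.06 in subclone 28 (SE; adjusted p at most 1.13e-10, limma). Subclones 18 and 19 did not differ past the threshold (0.16, adjusted p = 0.13). Genes of chromosome 7 had a median difference of −0.18 in subclone 19 and 0.05 in subclone 18, and the part of that shift in the Cadm4 result was not tested. In subclone 19 the measured genes directly beside Cadm4, Plaur and Zfp428, differed by −0.165 and −0.295. Kcnn4, further out on the Plaur side, differed by −1.10 in subclone 19 and by 0.86 in subclone 18. Cadm3, a mainly neural member, stayed between 4.20 and 4.53.

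N-cadherin, Cdh2, was expressed in all 8 subclones, and E-cadherin, Cdh1, was near the bottom of the scale. Cdh2 means ran from 9.30 in subclone 23 to 8.28 in subclone 19, with every array at 8.26 or above (range 1.02, adjusted p = 6.21e-10 in the F-test). Subclones 23 and 18 formed the top of that order and did not differ from each other past the threshold (adjusted p = 0.89), nor did subclones 2 and 19 at the bottom (0.77). Cdh2 was apart in no subclone, the furthest being subclone 19 at −0.63 ± 0.06 (SE). Cdh1 stayed between 4.21 and 4.58 (adjusted p = 0.11), and the vascular cadherin Cdh5 between 5.05 and 5.33. Both genes taken as markers of this group, Cdh2 and Cadm1, were thus well above a level of 6 on every array, except Cadm1 in subclone 18.

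Cdh13, or T-cadherin, is anchored in the membrane by a lipid and lacks a cytoplasmic tail. The arrays carry 4 probe sets for Cdh13, and the values here are only from the one with the highest mean level. On that probe set Cdh13 was lowest in subclone 2, at 6.02, 6.09 and 5.98. The 20 other arrays ran from 6.53 to 9.06 with a median of 7.95, with no overlap. The difference was −1.91 ± 0.05 (SE), 3.75-fold, with an adjusted p of 4.19e-15. Subclone 28 followed at a mean of 6.58, a difference of −1.28 ± 0.05 (SE). At the other end were subclone 23, with 9.06, 8.90 and 8.93 and a difference of 1.45 ± 0.05, and subclone 19 with a difference of 1.05 ± 0.05. Subclones 24, 3 and 18, between 7.90 and 7.99, were neighbours in the order that did not differ past the threshold. Genes of chromosome 8, where Cdh13 lies, had medians of −0.28 in subclone 28, 0.26 in subclone 23, 0.12 in subclone 19 and −0.04 in subclone 2. In subclone 3 that median was −0.03, where Cdh13 differed by 0.24. The part of these medians in the Cdh13 differences was not tested. Of the remaining cadherins, Cdh15 of muscle cells had means of 6.17 to 6.73 and did not pass the F-test (adjusted p = 0.13).

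Among integrins, chains shared by many receptors had narrow ranges. Itgav, the vitronectin-binding alpha chain, spanned 12.39 in subclone 23 to 11.98 in subclone 18, and Itgb1, the beta chain shared by most matrix-binding integrins, spanned 10.94 to 10.36 in the same 2 subclones. Both passed the F-test (adjusted p = 9.50e-07 and 1.29e-07) with ranges of 0.41 and 0.59. A pair of further Itgb1 probe sets above 6 had the same highest and lowest subclones, and probe sets of both genes under 6 did not. A further Itgav probe set above 6 had the same lowest subclone, but subclone 2 highest at 7.31, and a range of 0.96. Itgb5, a beta chain that pairs with Itgav, was highest in subclones 18 and 23, at 9.76 and 9.75, and lowest in subclone 3 at 9.01. Itga3, a laminin receptor chain, ranged by 0.76 and Itga5, the fibronectin receptor chain, by 0.47.

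Itga6, a laminin-binding alpha chain, had a range of 1.37. It was lowest in subclone 18, at 11.34, 11.40 and 11.47, and subclone 19, at 11.33, 11.52 and 11.49, and highest in subclone 28, at 12.73, 12.79 and 12.79. Every array of subclone 28 lay above all 20 others, whose highest was 12.57, and subclones 18 and 19 overlapped. The differences from the other 7 were −0.84 ± 0.04 in subclone 18, −0.79 ± 0.04 in subclone 19 and 0.72 ± 0.04 in subclone 28 (SE; adjusted p at most 1.01e-10), so none was called apart. A second probe set gave a range of 1.83 with the same subclone on top. Its partner Itgb4, the hemidesmosome chain, stayed between 5.31 and 6.06.

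Itgb7, a beta chain best known from gut-homing lymphocytes, was private to subclone 18: apart there, with all its arrays beyond all others and its mean at least 1 log2 unit from the nearest subclone. Values were 8.67, 8.67 and 8.74 in subclone 18, against 9.79 to 10.74 with a median of 10.28 elsewhere. The difference was −1.58 ± 0.04 (SE), with an adjusted p of 1.15e-16. Among all genes, 1.28% were private to some subclone, and among the 89 there were 4: Itgb7, Cadm1 and Pcdh9 in subclone 18 and Pcdh17 in subclone 28. Of its known alpha partners, Itgae had its lowest mean in subclone 18, at 6.20, with 6.51 in subclone 19 and 7.06 in subclone 28 on top. In subclone 18 it did not differ from the other 7 past the threshold (−0.28, adjusted p = 0.13, limma). In subclone 28 it was higher by 0.70 (adjusted p = 0.000519, limma). Itga4 stayed between 4.95 in subclone 28 and 5.46 in subclone 6. The 6 measured genes to either side of Itgb7 on chromosome 15 differed in subclone 18 by −0.82 to 0.37, with Igfbp6 the lowest.

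Itgb2, the beta chain of the leukocyte integrins, had the widest range of the integrins, 3.11 log2 units. It was lowest in subclone 28, at 5.86, 5.66 and 5.58, and in subclone 23, at 6.08, 6.07 and 6.50, and highest in subclone 19, at 8.70, 8.92 and 8.81. All arrays of subclone 28 lay below the 20 others, whose median was 8.0. Neighbours in the order among subclones 2, 3, 6 and 19, between 8.03 and 8.81, did not differ past the threshold. It was apart in 4 subclones: −2.03 ± 0.09 in subclone 28 (SE, 4.07-fold, adjusted p = 1.84e-12), −1.44 ± 0.09 in subclone 23, 1.53 ± 0.09 in subclone 19 and 1.34 ± 0.10 in subclone 6. Its alpha partners were low in every subclone: Itgal between 5.23 and 5.67, Itgam between 4.71 and 5.21, and Itgax between 5.88 and 6.06, with adjusted p of 0.77, 0.27 and 0.80 in the F-test.

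Because Itgb2 marks leukocytes, their other markers are given beside it. Of 9 leukocyte markers measured, 3 passed the F-test (61.8% of all genes): Itgb2, Cd68 (range 2.80) and Cd14 (range 1.04). The summed level of the 9 lay between 58.56 in subclone 19 and 53.3 in subclone 23. That sum includes Itgb2 itself, at 8.81 and 6.22 in these subclones, so it partly repeats the Itgb2 values. The pan-leukocyte marker Ptprc stayed between 4.32 and 4.71 and the T cell marker Cd3e at 4.46 or below, both under 6 in all subclones. Cd14 and Csf1r were above 6 in every subclone. Cd14 ran from 9.04 in subclone 6 and 9.02 in subclone 3 to 7.998 in subclone 23, with 8.67 in subclone 28. Csf1r stayed between 7.02 and 7.29 and did not pass the F-test (adjusted p = 0.15). Cd68 was highest in subclone 28 at 8.94, where Itgb2 was lowest, but it was also high with Itgb2 in subclones 19 and 3, at 8.66 and 8.59. In subclones 18, 23 and 24, where Itgb2 was 6.90, 6.22 and 7.18, Cd68 was 6.14, 6.90 and 6.50. The median of chromosome 10, where Itgb2 lies, was 0.14 in subclone 28, 0.06 in subclone 23 and, in subclone 19, 0.25.

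The other integrins that spanned 1 log2 unit or more had levels near 6. Itgb3, which pairs with Itgav as a vitronectin receptor, was highest in subclone 3 at 6.98, 6.71 and 6.99, against 4.56 to 6.27 with a median of 5.44 elsewhere. The groups did not overlap and differed by 1.47 ± 0.10 (SE), 2.76-fold, with an adjusted p of 1.88e-09. A second Itgb3 probe set stayed at 4.35 or below. Itga1, a collagen receptor chain, was higher in subclone 3 (6.72 against 5.61, difference 1.11 ± 0.12) and lower in subclone 18 (4.72 against 5.89, difference −1.16 ± 0.12). A second Itga1 probe set, with a mean of 4.80, also had subclone 18 lowest, at 4.28. It placed subclone 19 highest at 5.24, with subclone 3 at 4.91. Itga2, the other classical collagen receptor chain, was highest in subclone 3 too, at 5.34, but never reached 6. Itga7, a laminin receptor chain of muscle, was lower in subclone 24 (4.98 against 6.01, difference −1.03 ± 0.10), and chromosome 10 had a median of −0.27 there. Itgb8, which with Itgav activates latent TGF-beta, was higher in subclone 18 (6.86 against 5.80, difference 1.06 ± 0.09) and at 5.19 in subclone 3 and subclone 19. All 5 of these differences had an adjusted p of 6.52e-07 or less.

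**Figure D3:**
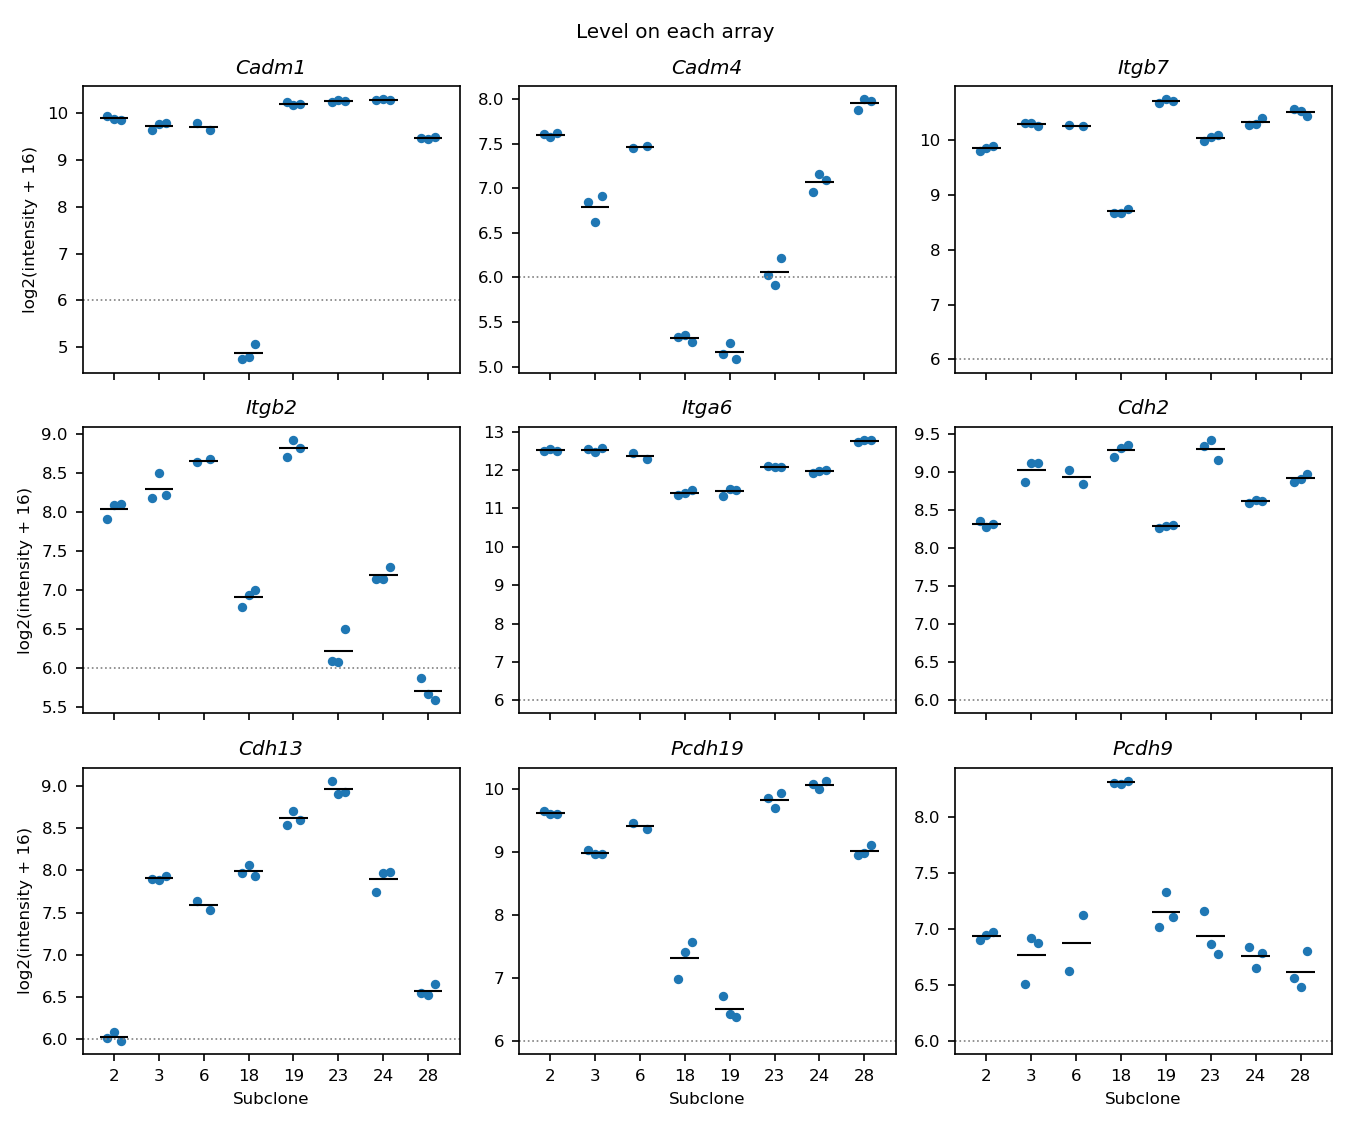
Level of 9 adhesion genes on each array, log2(intensity + 16), by subclone. Points are arrays, horizontal bars are subclone means and the dotted line marks a level of 6; vertical scales differ between panels. Cadm1 and Itgb7 are lowest and Pcdh9 is highest in subclone 18, Cadm4, Itga6 and Pcdh19 are lowest in subclones 18 and 19, Itgb2 is lowest in subclone 28 and Cdh13 in subclone 2.

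Nectins varied moderately. Nectin3, which pairs with the other nectins across contacts, was highest in subclone 3, at 10.09, 10.18 and 10.20, and lowest in subclone 19, at 9.15, 9.17 and 9.09, with no array of another subclone beyond either. The differences were 0.65 ± 0.04 in subclone 3 and −0.52 ± 0.04 in subclone 19 (SE; adjusted p = 3.07e-10 and 4.27e-09). Of 5 Nectin3 probe sets with a mean above 6, 3 had this highest and lowest subclone. The 2 others placed subclone 19 highest, at 6.89 and 6.50, and subclone 2 lowest, at 6.43 and 5.81 (adjusted p = 0.000715 and 0.000705). Nectin2 spanned 8.93 in subclone 23 to 8.19 in subclone 3, though its second probe set placed subclone 28 highest and subclone 19 lowest. For Nectin1, the probe set used stayed between 5.48 and 5.77 and did not pass the F-test (adjusted p = 0.81), while another ranged from 6.47 in subclone 28 to 4.63 in subclone 3 (adjusted p = 5.39e-05). Pvr, a nectin-like receptor that binds nectin-3, ranged from 10.78 in subclone 28 to 8.81 in subclone 18.

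Pcdh19, an X-linked protocadherin that acts together with N-cadherin in zebrafish, had the widest range of the protocadherins, 3.56 log2 units. It read 6.72, 6.43 and 6.39 in subclone 19, against 6.98 to 10.14 with a median of 9.42 on the 20 other arrays. In subclone 18 it read 6.98, 7.41 and 7.58, and no array of the 6 remaining subclones fell below 8.96. The differences from the other 7 were −2.67 ± 0.09 in subclone 19 (SE, 6.37-fold, adjusted p = 2.92e-14) and −1.75 ± 0.09 in subclone 18 (3.36-fold, adjusted p = 5.72e-12). Subclone 18 was higher than subclone 19 by 0.81 (adjusted p = 1.01e-05). Pcdh19 was also called higher in subclones 24 and 23, by 1.40 and 1.13. All 3 of its probe sets placed subclone 24 highest and subclone 19 lowest, with ranges of 3.56, 4.88 and 2.64.

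Next to Pcdh19 on the X chromosome, Tspan6, the second measured gene on one side, differed by −3.86 in subclone 19 and −3.70 in subclone 18. Tnmd, between them, had a mean of only 4.51 and differed by 0.02 and −0.02. Diaph2, the first on the other side, differed by 0.37 and 0.21. The medians of all X-linked genes were 0.04 in subclone 19 and −0.04 in subclone 18. Xist, the RNA of the inactive X, had means of 11.38 in subclone 18, 11.34 in subclone 19 and 11.18 in subclone 28, against 5.82 or less in the other 5. Pcdh19 in subclone 28 was 9.02. The part of Xist in these values was not tested.

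Pcdh9 was private to subclone 18 in the upward direction. Its arrays there read 8.31, 8.30 and 8.33, against 6.48 to 7.33 with a median of 6.88 elsewhere. The difference was 1.45 ± 0.10 (SE), 2.73-fold, with an adjusted p of 8.42e-10, and no neighbours among the 7 other subclones differed from each other past the threshold. Of its nearest measured neighbours on chromosome 14, those with a mean of at least 6 were Diaph3, Tdrd3, Bora, Dis3 and Mzt1. The differences in subclone 18 were 0.63 for Diaph3, 0.30 for Tdrd3, 0.40 for Bora, 0.48 for Dis3 and −0.07 for Mzt1. Pcdh20, with a mean of 4.85, differed by −0.03. The part of the region in the Pcdh9 difference was not tested. Pcdh17 was private to subclone 28, at 6.01, 5.62 and 5.89 against 4.18 to 4.85 with a median of 4.45, a difference of 1.37 ± 0.08 (SE) with an adjusted p of 2.59e-10. Its highest mean, 5.84, stayed below 6. Pcdh18 was lowest in subclone 19, at 6.75, 6.67 and 6.61 against 7.28 to 8.70, a difference of −1.39 ± 0.06 (SE) with an adjusted p of 5.81e-13. The median of chromosome 3, which carries it, was 0.26 in subclone 19. Pcdh7, at 9.18 in subclone 23 and 8.195 in subclone 19, was apart nowhere.

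The promoters of 4 genes with extreme values in subclone 18 are shown because the genes moved by different amounts and in different directions there: Cadm4 and Pcdh19 low in both subclone 18 and subclone 19, Itgb7 low and Pcdh9 high in subclone 18 alone. Each is the 250 bases before the gene's start in RefSeq on GRCm38.p6, 5′ to 3′ on the gene's strand, with CG dinucleotides in capitals. Pcdh9 has 2 starts listed, and only the window of the first is shown and counted. Cadm4 is at chr7:24481773-24482022 on the plus strand. Pcdh19 is at chrX:133688994-133689243, Itgb7 at chr15:102231936-102232185 and Pcdh9 at chr14:93890680-93890929, all on the minus strand.
Cadm4: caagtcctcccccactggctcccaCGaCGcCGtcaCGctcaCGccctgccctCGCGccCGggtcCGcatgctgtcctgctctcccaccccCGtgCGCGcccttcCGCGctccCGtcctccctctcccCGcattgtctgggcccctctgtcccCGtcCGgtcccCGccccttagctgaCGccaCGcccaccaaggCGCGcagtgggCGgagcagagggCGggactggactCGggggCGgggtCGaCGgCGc
Pcdh19: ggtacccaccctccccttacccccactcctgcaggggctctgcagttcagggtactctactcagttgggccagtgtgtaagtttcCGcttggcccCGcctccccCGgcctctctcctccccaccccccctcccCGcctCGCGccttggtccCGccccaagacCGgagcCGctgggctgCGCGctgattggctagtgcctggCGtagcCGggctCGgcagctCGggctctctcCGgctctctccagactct
Itgb7: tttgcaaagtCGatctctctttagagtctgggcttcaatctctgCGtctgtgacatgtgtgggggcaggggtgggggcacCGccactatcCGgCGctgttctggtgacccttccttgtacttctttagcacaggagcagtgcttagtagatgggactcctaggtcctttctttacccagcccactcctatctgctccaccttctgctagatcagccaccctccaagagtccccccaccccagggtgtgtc
Pcdh9: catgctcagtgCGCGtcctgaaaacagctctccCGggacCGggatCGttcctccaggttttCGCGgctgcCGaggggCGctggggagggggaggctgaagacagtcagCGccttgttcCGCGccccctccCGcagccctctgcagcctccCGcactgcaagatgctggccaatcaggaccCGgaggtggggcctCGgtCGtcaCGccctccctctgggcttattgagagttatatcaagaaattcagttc

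These windows hold 30 CG in Cadm4, 18 in Pcdh9, 16 in Pcdh19 and 5 in Itgb7. Of 27025 promoter windows of this length, 25.6% hold at least 16 and the median is 6, and the median of the 44 adhesion genes with a window in the table is 10.5. The motif bound by Snail and Zeb factors was searched as CAGGTG and, for the other strand, CACCTG. It occurred in 7 of the 44 windows (15.9%, against 17.1% of all windows) and in none of the 4 printed. A window without these letters says nothing of binding elsewhere.

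The clustered protocadherins of the Pcdhb group lie side by side on chromosome 18, and 22 of them were measured. In chromosomal order, the first 14 and Pcdhb18 had no subclone mean as high as 6, while the 7 others, Pcdhb15, Pcdhb16, Pcdhb17, Pcdhb19, Pcdhb20, Pcdhb21 and Pcdhb22, did. Of the 22, 10 passed the F-test (45.5%, against 61.8% of all genes), and 5 of these spanned 1 log2 unit or more (22.7%, against 12.7%). These genes are close paralogues, so probe sets may share signal, and Pcdhb15 was read from a probe set of the kind designed for several transcripts.

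Pcdhb16, Pcdhb17, Pcdhb20 and Pcdhb21 had subclones 23 and 18 as their highest pair and subclones 3 and 24 as their lowest. Pcdhb19, which did not pass the F-test (adjusted p = 0.20), differed by −0.25 in subclone 18 and 0.03 in subclone 3. Pcdhb20 read 7.52, 7.35 and 7.57 in subclone 23, against 5.07 to 6.96 with a median of 5.98 elsewhere, a difference of 1.47 ± 0.07 (SE) with an adjusted p of 1.06e-11. In subclone 3 it read 5.07, 5.28 and 5.46, a difference of −1.06 ± 0.07. Pcdhb17 read 8.35, 8.43 and 8.52 in subclone 18 and 8.43, 8.32 and 8.22 in subclone 23, which overlap, with differences of 1.25 ± 0.06 and 1.13 ± 0.06. It was lowest in subclone 3, with arrays at 6.36, 6.51 and 6.66, and in subclone 24, at 6.59, 6.63 and 6.59. Pcdhb16 was apart in subclone 23 (7.18 against 6.10, difference 1.08 ± 0.07) and Pcdhb21 ranged from 8.34 in subclone 23 to 6.90 in subclone 3.

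Counted by adjusted p alone, 9 of the 22 were higher in subclone 18, or 40.9%, against 21.5% of all genes, and no other passed, where 21.6% of all genes were lower. In subclones 23 and 2, 6 were higher, or 27.3%, against 20.2% and 15.4% of all genes, and no other passed, where 17.4% and 20.5% were lower. In subclones 19 and 24, 6 were lower (17.7% and 17.1% of all genes) and no other passed, where 24.2% and 15.2% were higher. Subclone 3 had 8 lower, or 36.4%, against 18.6% of all genes, and 1 higher (19.4%). Subclone 28 had 4 lower, or 18.2%, the share of all genes, and 1 higher (19.2%), which was Pcdhb15 at 6.01. Subclone 6 had 3 lower (10.1%) and no other past the threshold, where 13.8% of all genes were higher. Over the 7 genes that reached 6, differences ran from 0.48 to 1.47 in subclone 23, from −0.25 to 1.25 in subclone 18, from −1.06 to 0.03 in subclone 3 and from −0.84 to −0.16 in subclone 24. Genes of chromosome 18 had a median of −0.19 in subclone 3 and between −0.003 and 0.06 in the others, and its part in the subclone 3 values was not tested. Cdh2, on the same chromosome, was 9.03 in subclone 3, above its mean of 8.81 in the other 7. Pcdhgc4, a gamma-cluster gene on that chromosome, ranged from 6.83 in subclone 23 to 5.55 in subclone 3 (adjusted p = 0.00077), with no neighbours in that order past the threshold.

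**Figure D4:**
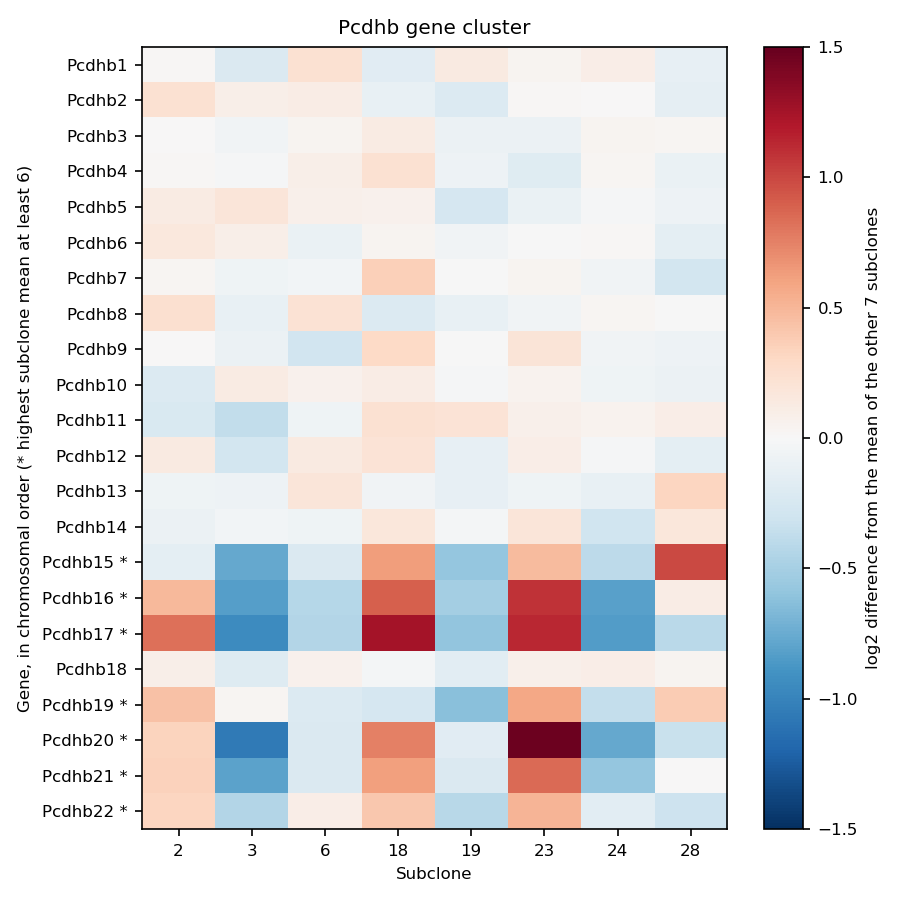
Log2 difference of each subclone from the mean of the other 7 for the 22 Pcdhb genes measured, in chromosomal order from top to bottom. Asterisks mark the 7 genes with a subclone mean of at least 6; most of the strong colours are theirs, red in subclones 2, 18 and 23 and blue in subclones 3 and 24, and the genes above Pcdhb15 stay pale.

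Which subclones stood at the ends of the order was also counted. Of the 44 genes past the F-test, 6 had subclones 18 and 19 as their lowest pair: Cadm4, Itga6, Itga5, Itgb3, Nectin3 and Pcdh19 (13.6%, against 7.57% of the 11242 genes past the F-test). Subclones 3 and 24 were the lowest pair for 5, Pcdhb16, Pcdhb17, Pcdhb20, Pcdhb21 and Pcdh17 (11.4%, against 2.41%). For Pcdh17, neighbours in the order from subclone 3 at 4.35 to subclone 19 at 4.39 did not differ past the threshold. Subclones 18 and 23 were the highest pair for 8, among them Cdh2, Itgb5 and 6 Pcdhb genes (18.2%, against 7.29%). Neighbouring Pcdhb genes are not independent of one another, so these shares are descriptions.

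Genes that work with these receptors were read from lists chosen with earlier results known. Beside the counts that follow, 61.8% of all genes passed the F-test and 12.7% also had a range of at least 1 log2 unit. The list counts were not tested against those shares. Of 18 genes of the cadherin and catenin complex, 11 passed the F-test and 4 spanned 1 log2 unit or more: Lmo7 (2.64), Ctnnal1 (1.85), Pkp2 (1.12) and Pkp4 (1.10). Lmo7, a junction-associated LIM protein, differed by −1.77 in subclone 18, −1.29 in subclone 2 and 1.25 in subclone 28. Ctnnal1, a relative of alpha-catenin, differed by −1.36 in subclone 18. The catenins that bind classical cadherins also passed, with ranges of 0.47 for Ctnna1, 0.23 for Ctnnb1 and 0.79 for Ctnnd1. Of 14 transcriptional regulators of cadherins, 10 passed and 2 had such a range. Snai2, a repressor of E-cadherin, was highest in subclone 23 (11.35) and lowest in subclone 2 (9.85), and Foxc2, with means under 6, ranged by 1.41, Snai1 by 0.89 and Tcf3 by 0.83.

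Of 25 genes of the plaque that ties integrins to actin, 23 passed the F-test (61.8% of all genes). A range of at least 1 was found for 6 (12.7% of all genes), and the median range was 0.72. Tgfb1i1 (Hic-5), a paxillin relative, had the widest range, 3.21, with means of 4.81 in subclone 18 and 4.98 in subclone 19 against 7.11 or more in the other 6. The differences were −2.40 ± 0.07 in subclone 18 and −2.20 ± 0.07 in subclone 19 (SE; adjusted p = 2.30e-15 and 1.69e-14). Ptk2b (Pyk2, a relative of focal adhesion kinase) differed by 1.31 in subclone 28 and −1.22 in subclone 24, and Lims2 and Tns3 ranged by 1.83 and 1.35. Of 27 integrin ligands, 20 passed and 7 had a range of at least 1. Nid2, a basement membrane nidogen, was at 7.09 in subclone 18 and at 4.36 or below in the others, and Thbs1 was also higher in subclone 18, by 1.48. Lama4, a laminin chain, was higher in subclone 28 by 1.67, and Edil3, a ligand of Itgav integrins, ranged by 2.28 from subclone 6 to subclone 23.

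Of 23 genes of desmosomes, tight junctions and related contacts, 11 passed the F-test (61.8% of all genes) and 6 had a range of at least 1 (12.7%). The widest ranges were those of Ocln (1.99), Pvr (1.97), Crtam (1.74) and F11r (1.73). Crtam, a receptor for Cadm1 on lymphocytes, ranged from 9.19 in subclone 2 to 7.46 in subclone 19. Among cell type markers, Krt8 and Pdgfrb were the ones with the widest ranges, and both were extreme in subclone 18. Of 5 epithelial markers, 4 passed and 3 had a range of at least 1, Krt8 (5.59), Krt19 (2.09) and Krt18 (1.15), with a summed level of 34.32 in subclone 18 and 38.26 to 41.9 in the others. Without Krt8 the sum was 28.62 in subclone 18, inside the span of 27.94 to 30.72 in the others, and Epcam was highest in subclone 18, at 7.99. Of 5 mesenchymal markers, 4 passed and 2 had such a range, Pdgfrb at 3.93 and Cdh2, with a summed level of 49.22 in subclone 18 and 44.66 to 46.08 in the others. Without Pdgfrb the sum was 41.03 in subclone 18, inside the span of 40.21 to 41.12 in the others, and Vim and Fn1 were lowest in subclone 18, at 13.67 and 13.18. Of 4 lung epithelial markers Sftpc passed with a range of 0.64, and of 5 endothelial markers Tie1 passed with a range of 1.44 and means under 6. The summed levels of those lists spanned 20.59 to 21.63 and 24.03 to 26.06 over the subclones. The melanocytic and neural markers Pmel, Mlana and Sox10 had adjusted p of 0.23, 0.94 and 0.54. The part of these marker differences in the adhesion results of subclone 18 was not tested.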

How the data were processed

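The arrays, 23 in all, were Affymetrix arrays of 45101 probe sets, hybridised with biotin-labelled cRNA from 8 LLC subclones, per the labels. The authors deposited a linear intensity for every probe set on every array. How it was computed and scaled is not given in the sources used here. Arrays were grouped by the subclone in the labels.

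The deposited intensities were turned into log2(intensity + 16), so folds are on that scale and understate changes of low genes. After 64 control probe sets were left out, 34945 had 1 gene symbol in the platform annotation, 932 had several and 9160 were unnamed; symbols were updated through a RefSeq table (GRCm38.p6) for 34741. The probe set with the highest mean level represented each gene. One model in limma 3.58.1 (R 4.3.3; lmFit, eBayes), with 15 residual degrees of freedom and tested on simulated data, gave the F-test, the contrasts of each subclone with the other 7 and all 28 pairs. The number of arrays limits the precision.

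Named with values were Cadm1 and Cdh2, genes past the F-test whose means spanned 1 log2 unit or more and reached 6, the 3 highest genes of each family, private genes, and up to 4 genes per list. Members and lists were chosen with earlier results of these data known. Other genes given beside them were chosen after their values were seen. Alternatives were other pseudocounts, a filter, quantile normalization, the mean of probe sets, trended and robust moderation, a replicate block and leaving out each array.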

Additional observations from a re-analysis of the deposited data

How the results depend on the processing

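For the 89 adhesion genes, the counts were recomputed under 30 alternatives. With log2(intensity + 1), the genes apart became 11 in subclone 3 (3 as reported), 3 in subclone 6 (1), 5 in subclone 24 (3) and 7 in subclone 28 (4). With log2(intensity + 64), genes with a range of at least 1 fell to 15 (23), differences over all pairs to 101 (190), and genes apart to 1 in subclone 2 (2), 4 in subclone 18 (8), 2 in subclone 23 (7) and 1 in subclone 24 (3). Subclone 3 then had 0 (3) in limma, although 37 genes had an unadjusted p under 0.05 and 35 an adjusted one, without a minimum size. A larger pseudocount shrinks the differences of low genes by construction. Requiring a mean level of at least 6 left 27 genes past the F-test (44) and 1 apart in subclone 3, since fewer genes were tested. Averaging all probe sets of a gene gave 1 in subclone 3, 3 in subclone 19 (6) and 4 in subclone 23 (7); the cause was not tested.

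Leaving out 1 array at a time gave 41 to 48 genes past the F-test, 22 to 24 with a range of at least 1 and 188 to 194 pair differences. Genes apart then ranged from 2 to 2 in subclone 2, 2 to 4 in subclone 3, 1 to 1 in subclone 6, 7 to 8 in subclone 18, 6 to 6 in subclone 19, 7 to 7 in subclone 23, 2 to 3 in subclone 24 and 4 to 5 in subclone 28. Replicate numbers do not pair the arrays: same-numbered arrays of different subclones had residual correlations from −0.401 to 0.341 over 77 pairs, and 6 of 23 arrays correlated best with their own number. A fit with the replicate number as a block gave 44 genes past the F-test, 23 with such a range and 189 pair differences.

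Of 862 recomputed differences of the 29 named genes, 857 kept direction and side of the threshold and none reversed. Weaker were Itgav in subclone 23 (0.03) and Itgb1 in subclone 18 (−0.11) with probe sets averaged, and Cdh15 in subclone 28 without replicate 1 (0.33) or 3 (0.39); Nectin1 in subclone 6 became called (0.30) with probe sets averaged. Signal near the array median limits the genes below 6, whose levels have no detection call here.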
